A study of Mus musculus with 38 samples.

Results

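The genes examined were Mapk3, Map2k1, Map2k2, Braf, Hras and Nf1, which encode the core of the ERK cascade and were taken from the count table by their symbols, 6 of its 54165 genes. They were chosen with their genotype differences in the prefrontal cortex (PFC) already known, so those differences are described here without a test. Tests were kept for the hypothalamus (Hypo), the sexes, the 2 tissues and relations with library quality and the level of Ube3a. RNA sequencing covered 38 libraries from 25 adult FVB/NJ mice, 13 of which gave both tissues. Ube3a2x mice were homozygous for a transgene of Ube3a, a ubiquitin ligase gene, and so carried 2 extra copies, whose product is tagged at its C-terminus. Their WT littermates carried none. The PFC was micropunched from brain sections and had 5 libraries in each of the WT female, Ube3a2x female, WT male and Ube3a2x male groups. The Hypo was excised whole and had 4 libraries in each WT group and 5 in each Ube3a2x group. All libraries were polyA-selected and stranded, and the 2 tissues differed in RNA kit and input, which cannot be told apart from tissue. Libraries held 36.9 to 69.1 M gene-assigned reads (M for 10 to the power 6) in the PFC and 39.0 to 380.8 M in the Hypo. All 6 members had enough reads to be tested in the PFC and the Hypo, among 12824 genes tested in the PFC and 13964 in the Hypo.

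In the ERK cascade, receptors at the cell surface load the small GTPase Ras with GTP. Ras then recruits a Raf kinase, Raf phosphorylates the MEK kinases, and MEK phosphorylates the ERK kinases on a threonine and a tyrosine. ERK acts on cytoplasmic kinases and on transcription factors such as Elk1, and induces phosphatases and Sprouty proteins that damp the cascade. In neurons it couples synaptic activity to gene expression and long-lasting plasticity. Hras encodes a Ras GTPase, Nf1 encodes neurofibromin, which switches Ras off, Braf encodes the main neuronal Raf, Map2k1 and Map2k2 encode MEK1 and MEK2, and Mapk3 encodes ERK1. Germline variants of Hras, Nf1, Braf, Map2k1 and Map2k2 cause a family of related developmental disorders in people, in which learning is often affected. The counts measure transcripts, and not kinase activity.

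Map2k1 and Map2k2 encode the same step, so their reads must be separable. The stretch of coding sequence that carries the activating phosphorylation sites shows how far the pair has drifted apart at a place where the protein is closely alike, and the matching stretch of Mapk3 is shown because its product is what MEK phosphorylates. In Mapk3, the capitals mark the codons of the threonine and the tyrosine that MEK phosphorylates and of the residue between them. The stretch lies at chr7:126763449-126763475 on the plus strand, in exon 4 (GRCm38, all 5′ to 3′).
Mapk3: ggctttctgACGGAGTATgtggccaca
In the MEK pair, the capitals run from the codon of one serine phosphorylated by Raf to the codon of the other. Map2k1 lies at chr9:64193723-64193749 on the minus strand, in exon 6, and Map2k2 at chr10:81119334-81119360 on the plus strand, in exon 6.
Map2k1: attgacTCTATGGCCAACTCCttcgtg
Map2k2: atcgacTCCATGGCCAACTCGtttgta
Of these 27 bases, 22 were identical in the MEK pair. Over the whole coding sequences, the longest identical run was 56 bases between Map2k1 and Map2k2, 17 between Braf and Araf, and 23 between Hras and Nras. No 100-base stretch of any member's exons occurred in another gene of the annotation. The members lie at chr7:126759601-126765819 (Mapk3, plus strand), chr9:64185770-64253631 (Map2k1, minus), chr10:81105915-81133975 (Map2k2, plus), chr6:39603237-39725463 (Braf, minus), chr7:141189105-141194005 (Hras, minus) and chr11:79339693-79581612 (Nf1, plus). Nf1 has the genes Omg, Evi2a and Evi2b within it on the opposite strand, while Mapk3, Map2k2 and Hras overlap no other gene.

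The labels were first checked with Ube3a and tissue markers. Levels are in CPM, reads of a gene per 1 M reads of its library after TMM scaling. In the PFC, Ube3a stood at 793 to 2175 CPM in Ube3a2x females and 667 to 1205 CPM in Ube3a2x males, against 192 to 268 and 221 to 255 CPM in WT females and males. In the Hypo it stood at 752 to 1744 CPM in Ube3a2x and 113 to 360 CPM in WT libraries, so the genotypes did not overlap in either tissue. The summed level of 7 hypothalamic markers was 0.884 to 1.91 CPM in the PFC and 460 to 2125 CPM in the Hypo. That of 6 excitatory neuron markers was 5433 to 10795 CPM in the PFC and 588 to 1074 CPM in the Hypo. Some libraries stood apart in evenness of coverage along transcripts, measured as its median coefficient of variation. In the PFC, Ube3a2x female 468 (0.717), Ube3a2x male 258 (0.631) and WT female 397 (0.562) exceeded 0.55. In the Hypo, WT female 471 (0.649) and Ube3a2x male 238 (0.533) exceeded 0.5. Hypo WT female 471 also held 4991 CPM of pituitary hormone transcripts, where the median Hypo library held 99.0 CPM.

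Mapk3 was the member with the largest genotype difference in the PFC, and the difference was in males. The Ube3a2x males had 184, 147, 183, 197 and 175 CPM of Mapk3 (libraries 238, 253, 258, 267 and 402), and the WT males had 143, 113, 115, 134 and 119.6 CPM. All 5 Ube3a2x males lay above all 5 WT males. This complete separation in the upward direction was found for 0.866% of all genes tested, and since the gene was picked for its PFC values nothing is read from it. Ube3a2x females had 101, 111, 108, 139.8 and 101 CPM, and WT females had 157, 119, 153, 110.3 and 123 CPM. The female groups overlapped, with 3 Ube3a2x females below every WT female, and 2.43% of all genes were apart between the female groups. On the log2 scale the fitted difference, Ube3a2x minus WT, was 0.45 (SE 0.08, n = 5 per group) in males, a 1.36-fold higher level, and −0.16 (SE 0.09, n = 5 per group) in females. The interaction, the male difference minus the female difference, was 0.61 (SE 0.12), and the mean over the sexes was 0.14 (SE 0.06).

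**Figure D1:**
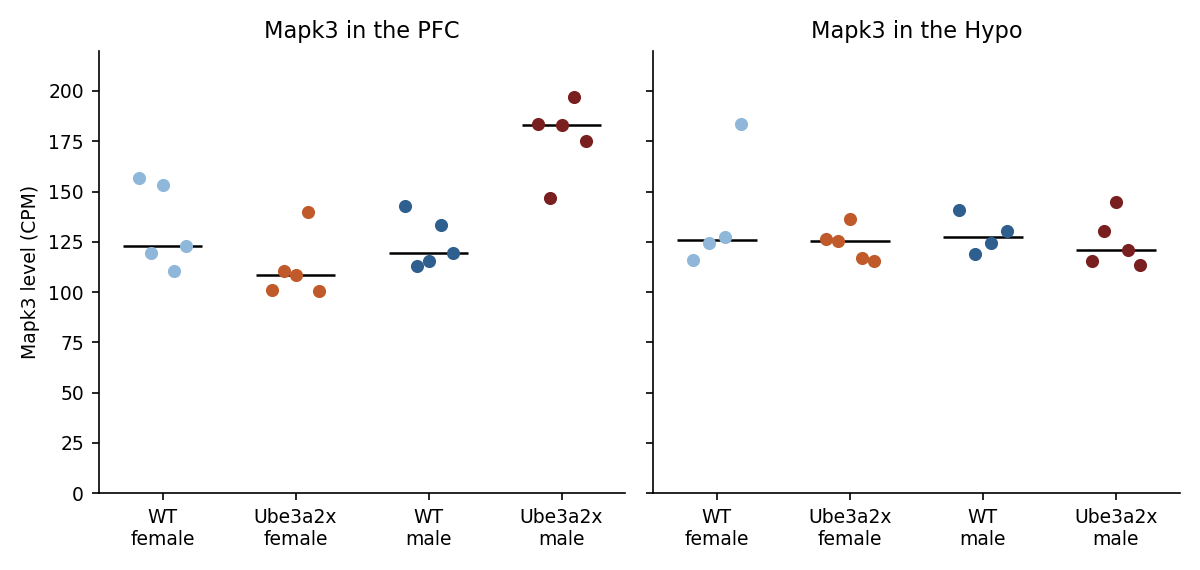
Mapk3 level in CPM in each library, by sex and genotype, in the PFC (left) and the Hypo (right), with a line at each group median. The PFC Ube3a2x males (147 to 197 CPM) lie above the PFC WT males (113 to 143 CPM), while the 4 Hypo groups overlap and WT female 471 stands apart at 183 CPM.

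The size of this difference leaned on a few libraries. Without the 3 PFC libraries of uneven coverage, the interaction for Mapk3 was 0.31 and the difference in males 0.25. Removing the trend of the fold changes with gene GC content and length left an interaction of 0.35 and a difference of −0.04 in females. Leaving out any single PFC library gave an interaction between 0.44 and 0.71 and a difference in males between 0.32 and 0.50, so no single library turned the direction.

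A second library property differed between the genotypes in the PFC. In 6 PFC libraries, over 97% of aligned gene reads lay on the expected strand, and all 6 were Ube3a2x. Of these, 4 were males, at 98.2 to 99.1% and with 147 to 197 CPM of Mapk3, and 2 were females, at 97.4 and 98.4% and with 101 and 139.8 CPM. The fifth Ube3a2x male, library 258, had 92.1% of reads on the expected strand and 183 CPM of Mapk3, and the WT libraries had 92.5 to 95.6%. With the strand share as a covariate in place of the 2 surrogate variables of the fit, the interaction was 0.73 (SE 0.16). The difference in males was then 0.43 (SE 0.13), that in females went from −0.16 to −0.29, and the mean over the sexes from 0.14 to 0.07. These shifts include leaving out the surrogate variables. With RNA integrity number alone, which leaves them out too, the interaction was 0.75.

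The remaining members showed smaller PFC differences. Hras, at the entry of the cascade, stood at 118, 96.6, 96.3, 119 and 121 CPM in Ube3a2x males and at 82.3, 97.3, 94.2, 97.8 and 82.2 CPM in WT males. The groups overlapped, with 3 Ube3a2x males above every WT male. Its difference was 0.24 (SE 0.08) in males and −0.01 (SE 0.10) in females, and its interaction 0.25 (SE 0.13). Under other settings the Hras difference in females ran from −0.23 with the strand share in place of the surrogate variables to 0.09 with GC and length trends removed. Nf1, the brake on Ras, stood at 137.6 to 182 CPM in Ube3a2x males and 139.2 to 158 CPM in WT males. Its differences were 0.02 (SE 0.07) in males and −0.02 (SE 0.08) in females. Both signs turned when other terms replaced the surrogate variables. The Nf1 difference was −0.10 in males with components of library quality and 0.15 in females with the strand share. Braf stood at 198 to 248 CPM in Ube3a2x males and 214 to 230.3 CPM in WT males. Its fitted differences were −0.07 (SE 0.05) in males and 0.11 (SE 0.06) in females. Both signs turned under other settings, to 0.03 in males once trends with GC content and length were removed and to −0.02 in females without the unevenly covered libraries. Without WT female 397 alone, the Braf difference in females was 0.01 and its interaction −0.04.

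At the MEK step, Map2k1 stood at 212 to 352 CPM in Ube3a2x males and 256 to 329 CPM in WT males, with differences of −0.08 (SE 0.06) in males and 0.09 (SE 0.07) in females. Both signs turned when other terms replaced the surrogate variables. The difference went to 0.08 in males with components of library quality and to −0.15 in females with the strand share. Map2k2 stood at 61.2, 33.8, 26.1, 51.3 and 60.9 CPM in Ube3a2x males and 36.4, 45.8, 37.5, 41.1 and 38.2 CPM in WT males. Its Ube3a2x males lay on both sides of the WT range. Its Ube3a2x females had 36.8, 40.8, 35.3, 44.6 and 14.6 CPM and its WT females 60.2, 44.5, 50.6, 32.7 and 44.6 CPM, with the lowest value in library 468. The Map2k2 difference was 0.15 (SE 0.09) in males and −0.23 (SE 0.10) in females, with an interaction of 0.39 (SE 0.13). Without the 3 unevenly covered libraries the interaction was −0.10 for Map2k2, 0.01 for Hras and 0.02 for Braf, against 0.39, 0.25 and −0.18 with all libraries. Map2k2 then differed by −0.09 in males and 0.01 in females, and Hras by 0.05 in males. Single libraries also moved these values, with an Hras interaction of 0.13 and a difference in males of 0.14 without Ube3a2x male 238, and a Map2k2 interaction of 0.16 without Ube3a2x male 258 or WT female 397. The Map2k2 difference in males was 0.03 without Ube3a2x male 258. That in females ran from −0.37 without Ube3a2x female 417 to −0.07 without WT female 397. With the strand share in place of the surrogate variables, the Map2k2 difference in females was −0.56.

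**Figure D2:**
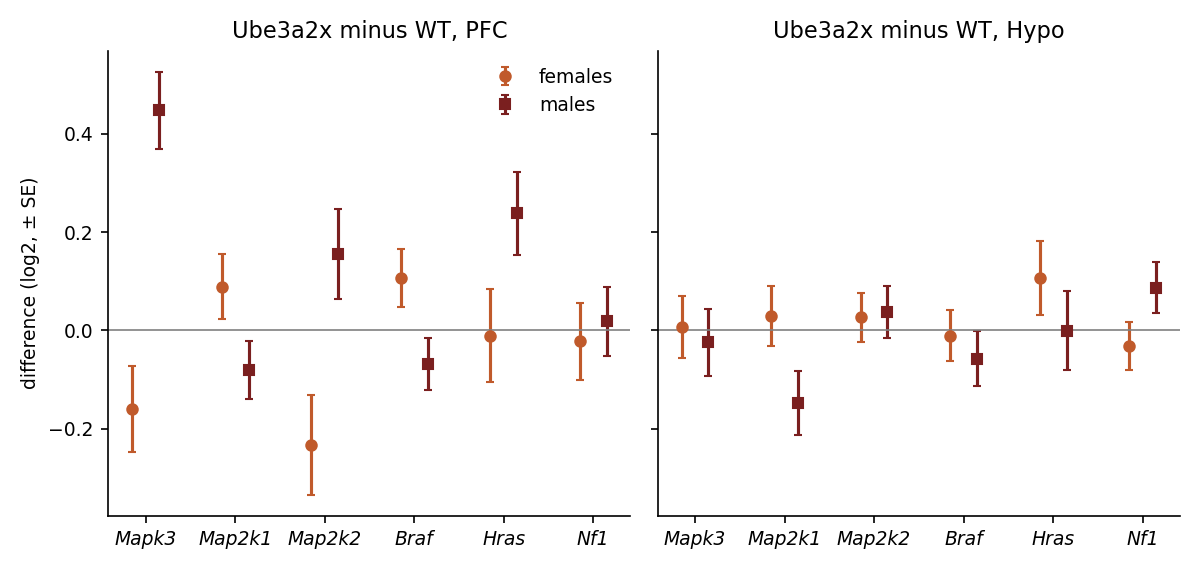
Fitted difference Ube3a2x minus WT on the log2 scale, with its SE, for the 6 members in females (circles) and males (squares), in the PFC (left) and the Hypo (right). Mapk3 in PFC males (0.45) lies farthest from 0, and the Hypo differences lie between −0.15 and 0.11.

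Of close relatives of the members, Araf and Nras were compared in the same fit. Araf, a Raf kinase gene, stood at 125 to 158 CPM in Ube3a2x males and 159 to 177 CPM in WT males. These groups did not overlap, as for 1.35% of all genes in the downward direction, but the difference of −0.16 (SE 0.06) did not pass (edgeR adjusted p = 0.187) and was −0.04 without the unevenly covered libraries. Nras, a Ras GTPase gene, differed by −0.03 (SE 0.06) in males and did not pass either (adjusted p = 0.824). Of all genes tested, 0.117% passed in PFC males, 0.00780% in PFC females and 0.0156% in the mean over the sexes. For the interaction no gene passed by edgeR, at an unadjusted p under 0.05 there were 3283 genes (25.6%), and DESeq2 called 959 genes. The 15 genes that passed in PFC males became 1 to 73 when single libraries were left out, the highest without Ube3a2x male 253. The edgeR count of 0 for the interaction depended on single libraries too, and was 1965 without WT female 93, 1121 when Ube3a2x male 253 was left out and 818 when Ube3a2x female 462 was.

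In the Hypo, where the members could be tested, none passed between genotypes by edgeR, Mapk3 included. In Hypo males Ube3a itself, 3.47-fold higher in Ube3a2x and without overlap, did not pass either (adjusted p = 0.0816). Mapk3 had 126, 125, 136, 117 and 116 CPM in Ube3a2x females and 116, 124, 128 and 183 CPM in WT females. It had 115, 130.2, 145, 121 and 114 CPM in Ube3a2x males and 141, 119, 124 and 131 CPM in WT males. Genotypes overlapped in both sexes, and the highest value belonged to WT female 471. Its fitted difference was −0.02 (SE 0.07, adjusted p = 0.917) between the male groups and 0.01 (SE 0.06, adjusted p = 0.9997) in the female groups, and the interaction term was −0.03 (SE 0.09, adjusted p = 0.934). The interaction was not tested for a difference between the tissues.

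Across the cascade core, by edgeR, 0 of 6 members passed in any of the 4 Hypo genotype comparisons, against 0% of all genes for the interaction, 0.00716% for the mean over the sexes, 0% in males and 0.00716% in females. The count of 0 genes in Hypo males became 53 without WT male 403, limma-voom called 1 and DESeq2 12, and at an unadjusted p under 0.05 there were 502 higher and 685 lower. The smallest unadjusted p among them was that of Map2k1 in males, with a difference of −0.15 (SE 0.06, adjusted p = 0.569). Map2k1 had 173 to 213 CPM in Hypo Ube3a2x males and 204 to 232 CPM in WT males, which overlap. No member's genotypes were apart in either sex, where 0.974% of all genes were apart in males and 1.08% in females.

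Sex was compared with the genotypes averaged. In the PFC, Mapk3 was 0.17 (SE 0.06) higher in males on the log2 scale and did not pass (adjusted p = 0.414). The WT medians were 119.6 CPM in males and 123 CPM in females, and the Ube3a2x medians 183 and 108 CPM. No member passed in the PFC, where 0.0780% of all genes did. In the Hypo the members with the smallest p were Nf1, 0.10 (SE 0.04) lower in males (adjusted p = 0.148), and Map2k2, 0.09 (SE 0.04) higher in males (adjusted p = 0.190), and 0 of 6 passed against 2.06% of all genes. Both signs turned with the strand share in place of the surrogate variables, to 0.10 for Nf1 and −0.21 for Map2k2. They also turned with RNA integrity number alone. Both settings leave out the surrogate variables, so a part of the strand share cannot be told apart from that.

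The levels of the members were compared between the tissues. Per kilobase of exon, so that genes can be ordered, the PFC medians of the members were 92.3 CPM for Map2k1, 56.9 for Mapk3, 26.0 for Hras, 16.1 for Braf, 9.19 for Nf1 and 7.23 for Map2k2. Of neighbours in that order, the libraries of Mapk3 (44.6 to 87.3) and Hras (21.7 to 34.7) did not overlap, and all other neighbours did. In the Hypo the medians were 61.7 for Map2k1, 55.4 for Mapk3, 15.8 for Hras, 12.8 for Nf1, 11.7 for Braf and 6.46 for Map2k2. The order depends on the length used. The exons of Map2k2 span 5663 bases, while its transcript with the longest coding sequence spans 2405. Per kilobase of such transcripts, the PFC median of Map2k2 (17.0) lay above that of Nf1 (12.2). In the Hypo, Mapk3 (98.6) lay above Map2k1 (85.9) per kilobase of such transcripts. In bulk tissue, a lower level in fewer cells and a lower level in each cell cannot be told apart.

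The difference PFC minus Hypo was fitted over all 38 libraries. Hras had a median of 96.9 CPM in the PFC and 58.9 CPM in the Hypo, a log2 difference of 0.66 (SE 0.14, adjusted p = 0.000118). Braf had 223 and 162 CPM, a difference of 0.51 (SE 0.11, adjusted p = 0.000143), and Map2k1 had 313 and 209 CPM, a difference of 0.41 (SE 0.09, adjusted p = 0.000261). Nf1 went the other way, with 146 and 204 CPM and a difference of −0.34 (SE 0.12, adjusted p = 0.00970). Mapk3 had medians of 128 and 125 CPM with a difference of 0.01 (SE 0.09, adjusted p = 0.937), and Map2k2 had 41.0 and 36.6 CPM with a difference of −0.02 (SE 0.21, adjusted p = 0.927). Thus 3 of 6 members passed as higher in the PFC and 1 as lower, a share near that of all genes, of which 32.0% were higher and 34.6% lower (66.6% in all), and each member's tissues overlapped. With each mouse as a replicate block, Hras (0.76, adjusted p = 0.0169) and Braf (0.53, adjusted p = 0.0206) still passed, while Map2k1 (0.26, adjusted p = 0.279) and Nf1 (−0.24, adjusted p = 0.261) did not. Without Hypo WT male 423, Nf1 had a difference of −0.26 (adjusted p = 0.146).

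Of the relatives, Araf was lower in the PFC, at 125 to 191 CPM against 271 to 315 CPM in the Hypo, a log2 difference of −0.87 (SE 0.06, adjusted p = 5.12e-14) and opposite in direction to Braf. Nras was higher in the PFC, as Hras was, at 54.8 to 85.2 CPM against 35.9 to 49.4 CPM, a difference of 0.66 (SE 0.07, adjusted p = 4.54e-10). The tissues did not overlap for either gene, as for 22.4% of all genes.

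**Figure D3:**
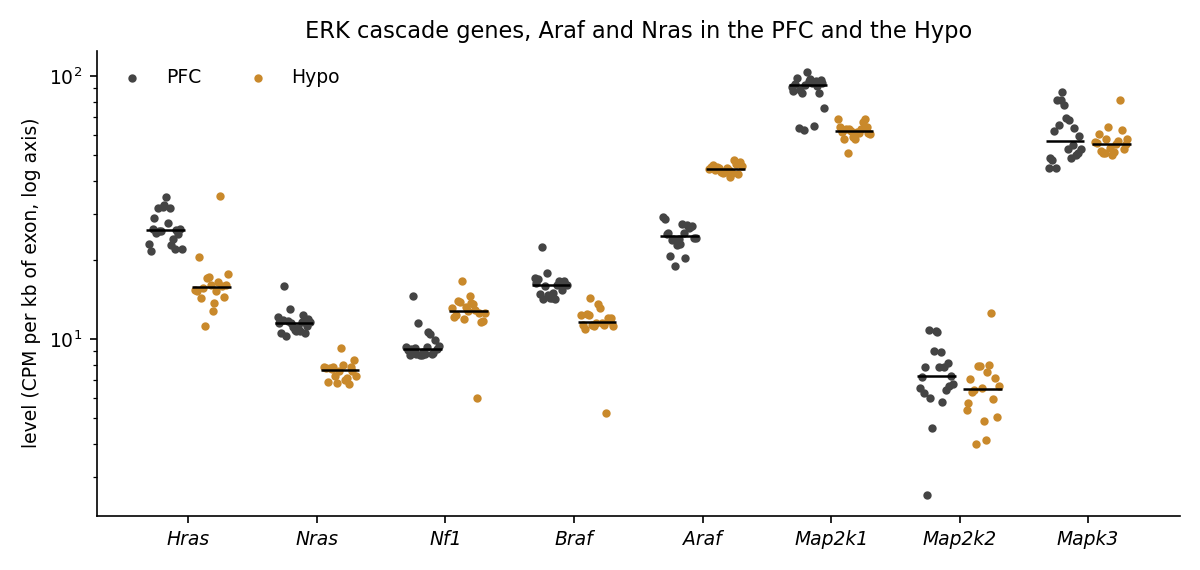
Level of the 6 members and of Araf and Nras in every library, in CPM per kilobase of exon on a log axis, for the PFC (grey) and the Hypo (yellow), with a line at each median. Nras (medians 11.5 and 7.63) is higher and Araf (24.8 and 44.5) lower in the PFC, and the Mapk3 medians over all groups are 56.9 and 55.4.

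A list of 57 further cascade genes was examined by role. In the PFC, 0 of 57 passed by edgeR in the interaction, the mean over the sexes, males or females. At an unadjusted p under 0.05, the interaction had 13 genes higher and 7 lower (35.1%, against 25.6% of all genes), and males had 7 higher and 4 lower (19.3%, against 18.6%). Since the list was drawn up with earlier results of these data known, nothing is read from these shares. DESeq2 called 8 genes of the list in the interaction and 3 in males, and limma-voom 0 in the interaction. With edgeR, 11 genes of the list passed in the interaction without WT female 93, and 7 passed when either Ube3a2x male 253 or Ube3a2x female 462 was left out. With the smallest p in the interaction were Rps6ka4 (0.41) and Rps6ka3 (−0.34), kinases activated by ERK, Pea15a (0.37), which holds ERK in the cytoplasm, and Araf (−0.30). None of these passed by edgeR with all libraries, and the Araf value was −0.04 without the unevenly covered libraries and −0.18 without WT female 397 alone.

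Several phosphatase, Sprouty and transcription factor genes are themselves transcribed in response to ERK, and both groups are given as values. In PFC males, the 8 phosphatases and feedback inhibitors differed by −0.59 (Dusp6) to 0.10 (Spry1), with a median of −0.24 and 3 of 8 above 0. In females they differed by −0.03 (Dusp7) to 0.24 (Dusp5), with 7 of 8 above 0. The 6 transcription factors ranged from −0.87 (Fos) to 0.28 (Srf) in males and from −0.26 (Srf) to 0.88 (Fos) in females. None of the 14 passed by edgeR with all libraries in either sex. In the Hypo, 56 of the 57 genes were tested, Dusp5 being too low, and 0 passed in any genotype comparison by edgeR, limma-voom or DESeq2.

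Sex called 3 genes of the list in the Hypo, all higher in males, and 0 in the PFC. They were Rps6ka2, a kinase activated by ERK (0.31, adjusted p = 0.00506), Rasal1, a Ras GTPase-activating protein (0.45, adjusted p = 0.0182), and Mras, a Ras-like GTPase (0.16, adjusted p = 0.0204). They made up 5.36% of the list, against 2.06% of all genes, and the count went from 0 to 8 under other settings.

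Across tissues, 29 of the 56 genes were higher and 13 lower in the PFC, 75.0% of the list against 66.6% of all genes, with a median log2 difference of 0.33 against −0.02 over all genes. Glial markers differed between the tissues as well, with a median summed level of 1764 CPM in the PFC and 4250 CPM in the Hypo for 6 oligodendrocyte markers, and of 1279 and 1973 CPM for 5 astrocyte markers, and their part in these differences was not tested. By role, 7 of 8 Ras GTPase-activating proteins and their partners were higher and none lower, as were 4 of 6 Ras and Rap GTPases and 5 of 6 transcription factors. Of the phosphatases and feedback inhibitors, 4 were higher and 1 lower of 7. The adaptors and exchange factors went mostly the other way, with 3 higher and 7 lower of 12. The largest difference was that of Rasgrp1, a calcium-responsive Ras activator, at 620 to 1131 CPM in the PFC and 67.1 to 107 CPM in the Hypo, a difference of 3.28 (SE 0.09, adjusted p = 1.65e-26). The ERK phosphatase gene Dusp3 was higher by 1.33 and the feedback inhibitor gene Spry2 by 1.75. Lower in the PFC were the adaptor genes Gab1 (−0.89) and Shc1 (−0.78), Araf (−0.87) and the ERK-activated kinase gene Rps6ka1 (−0.58). Of 12 genes of the JNK, p38 and ERK5 modules, 8 were higher and 2 lower in the PFC.

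**Figure D4:**
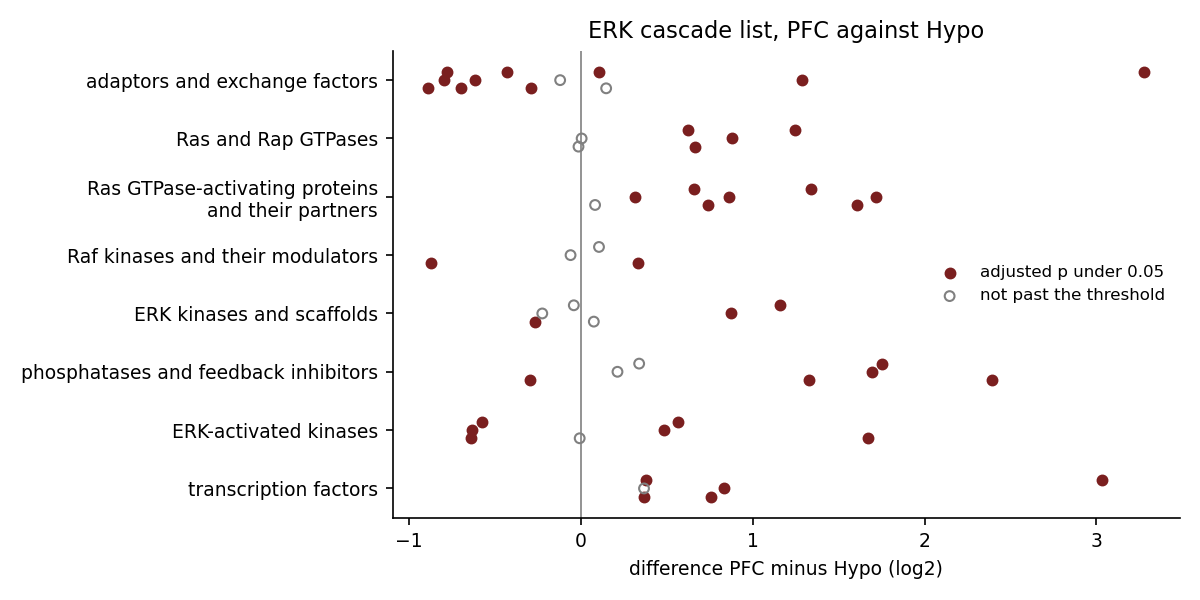
Difference PFC minus Hypo on the log2 scale for 56 cascade genes other than the members, grouped by role, with filled points for those past an adjusted p of 0.05. Of the Ras GTPase-activating proteins and their partners 7 of 8 passed above 0 and of the transcription factors 5 of 6, and of the 12 adaptors and exchange factors 7 passed below it and 3 above, with Rasgrp1 highest at 3.28.

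The members were set against 2 measures of library quality. AT dropout, a score of how poorly AT-rich sequence is covered in a library, was compared with each member's log2-CPM within each tissue, as was the RNA integrity number, 24 relations in all. None of the 12 relations with the RNA integrity number passed, and 2 of the 12 with AT dropout did. The share of all genes with such a relation was not determined, so these counts have no background to be read against. In the PFC (n = 20), Map2k2, whose longest transcript is 60.4% GC, rose with AT dropout (Pearson r = 0.852, permutation p = 1e-05, the smallest that 100000 permutations can give, adjusted p = 0.00024, Spearman rho = 0.723, permutation p = 0.00042, adjusted p = 0.0101). Braf, at 42.6% GC, fell with it (r = −0.796, permutation p = 0.00014, adjusted p = 0.00168, rho = −0.611, permutation p = 0.00447, adjusted p = 0.0536). Without the 2 farthest libraries, Ube3a2x female 468 and Ube3a2x male 238, r was 0.672 for Map2k2 (permutation p = 0.00245, adjusted p = 0.0588) and −0.549 for Braf (permutation p = 0.0179, adjusted p = 0.143). Neither call was kept without those libraries, while the sign of r was. With group means removed, r was 0.823 and −0.743. Mapk3, at 57.6% GC, had r = 0.279 (permutation p = 0.237, adjusted p = 0.517) and rho = 0.253 (permutation p = 0.282, adjusted p = 0.509).

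**Figure D5:**
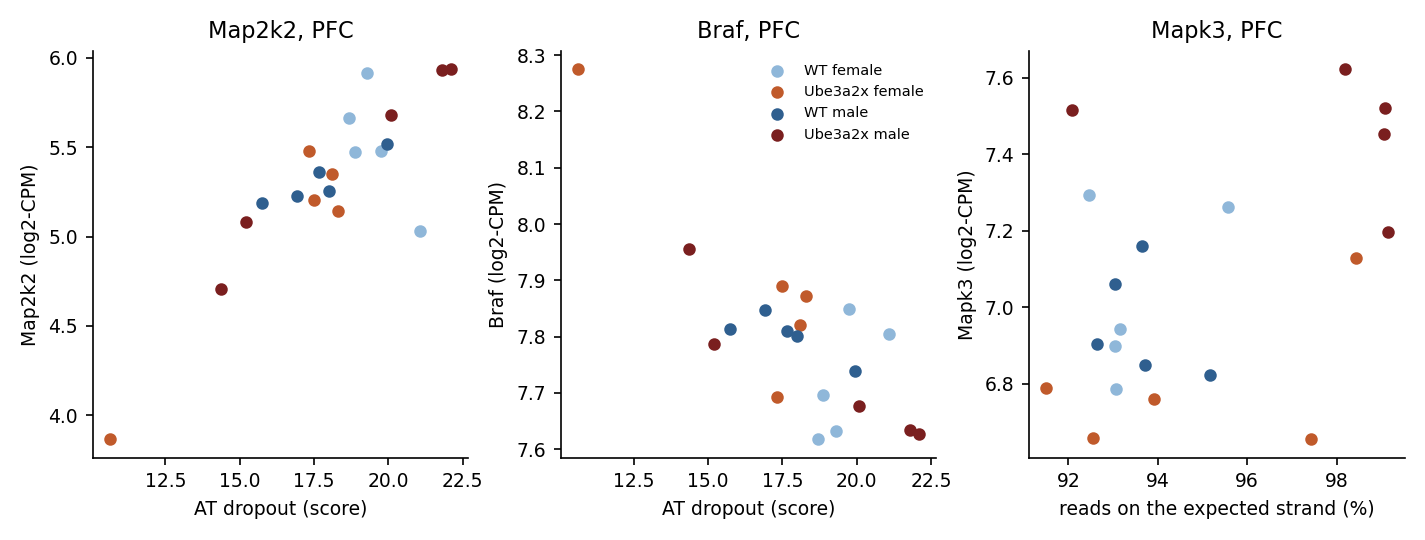
Level of Map2k2 and Braf against AT dropout (left and middle) and of Mapk3 against the percentage of reads on the expected strand (right), in log2-CPM, one point for each of the 20 PFC libraries, coloured by group. Map2k2 rises and Braf falls with AT dropout, and the 6 libraries over 97% on the strand axis are all Ube3a2x.

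Markers of brain cell types were set beside the Mapk3 difference. In PFC males, the summed level of 6 excitatory neuron markers ranged from 6935 to 10795 CPM in Ube3a2x and from 5711 to 7213 CPM in WT libraries. The 6 inhibitory neuron markers ranged from 772 to 1036 against 868 to 954 CPM. For the 3 markers of oligodendrocyte precursors the range was 124.6 to 171 against 92.3 to 124.6 CPM, and for 5 microglial markers it was 276 to 331 against 204 to 281 CPM, so these were mostly higher in Ube3a2x males and overlapped only at their edges. The 5 astrocyte markers (1081 to 2257 against 855 to 1419 CPM), 6 oligodendrocyte markers (947 to 3324 against 1004 to 2198 CPM) and 4 endothelial markers (195 to 359 against 161 to 246 CPM) overlapped more widely. Ube3a2x male 258, an unevenly covered library, gave the highest sum of the excitatory neuron, astrocyte, precursor, microglial and endothelial markers. None of these marker genes passed in a PFC genotype comparison by edgeR. At an unadjusted p under 0.05 in males, which 18.6% of all genes reached, 3 of 6 excitatory neuron, 4 of 6 oligodendrocyte, 2 of 3 precursor, 2 of 5 microglial and 1 of 5 astrocyte markers were higher and none lower. In the interaction, where 25.6% of all genes reached it, 3 of 3 precursor, 2 of 6 excitatory neuron, 2 of 5 microglial, 1 of 6 inhibitory neuron, 1 of 5 astrocyte and 1 of 4 endothelial markers were higher, and 1 inhibitory neuron marker was lower. The part of tissue composition in the Mapk3 difference was not tested.

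Within the Ube3a2x libraries, the level of each member was set against that of Ube3a. For Mapk3 in the PFC no result is given, since its Ube3a2x females (101 to 139.8 CPM) and males (147 to 197 CPM) did not overlap and each sex had 5 libraries. Of the 12 relations computed, none of the other 11 passed, the smallest p adjusted over the 12 being 0.362 by permutation, for Braf in the PFC.

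The genes whose levels followed Mapk3 most closely over the 20 PFC libraries were Gnai2 (r = 0.919), Rgs12 (0.915), Entpd2 (0.913), Cpxm1 (0.909) and Gna11 (0.903), by Pearson r of log2-CPM, given as a description. Without the 3 unevenly covered libraries (n = 17) these values were 0.897 to 0.931. Among the members r with Mapk3 was 0.67 for Hras, 0.49 for Map2k2, 0.18 for Map2k1, −0.28 for Nf1 and −0.54 for Braf. This is the order of the GC content of their longest transcripts, except that Map2k2 and Hras change places. All these points share their libraries, and the part of base composition in this order was not tested. In the Hypo (n = 18) the closest genes were Dtd2 (0.958), Ctsz, Smarcd3, Eri3 and Sqstm1, and without the 2 unevenly covered libraries (n = 16) the range was 0.825 to 0.875. No gene was among the 5 closest in both tissues.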

How the data were processed

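PolyA-selected, stranded paired-end libraries were made from RNA of micropunched PFC and of Hypo. Per the labels, reads were aligned to GRCm38 with STAR and counted per gene with featureCounts by the authors, who deposited raw read counts together with Picard quality metrics, in which the RNA integrity number and AT dropout are scores, strand and base shares are fractions and the coverage bias is a ratio. Columns of the deposited table were matched to libraries by mouse number, tissue, genotype and sex.

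A gene was dropped from a tissue when at least 2 of its libraries had under 100 reads for it, and no filter on variance was applied, so that every member stayed in. In each tissue, counts were scaled by TMM and fitted with edgeR 4.0.16 (quasi-likelihood, R 4.3.3), with sex, genotype and their interaction, RNA integrity number and 2 surrogate variables (sva 3.50.0) as terms. The tissue comparison had 8 groups and RNA integrity number over 38 libraries. P-values were adjusted by Benjamini-Hochberg over all genes tested, with a threshold of 0.05. CPM values use TMM over all 38 libraries, and CPM per kilobase uses the union of exons in GENCODE vM21. Correlations were tested with 100000 two-sided permutations. Each library is 1 mouse, and no 2 libraries of a group agreed within sampling noise.

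Same-numbered libraries of the tissues come from the same animal, which is where the pairing comes from. The correlation of their deviations from group means had a median of −0.056 over 13 pairs (−0.556 to 0.408), and 3 exceeded 0.1. The block fits are given where they change a call.

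Members and lists were chosen with earlier results of these data known. Named were the 6 members, Araf and Nras as close relatives, Ube3a, the 4 called cascade genes with the smallest p in each direction (or 2 where none was called), and the 5 genes closest to Mapk3 by Pearson r. Dusp6, Spry1, Dusp7, Dusp5, Fos and Srf are outside this rule and were named as the ends of a range. Some further genes that the rule named are not reported here. Alternatives were limma-voom 3.58.1, DESeq2 1.42.0, other scalings, filters, covariates and gene GC and length trends, and leaving out each library. Leaving out unevenly covered libraries and a strand share covariate were added after the data were seen. The strand share took the place of the surrogate variables, so its fits hold none. Deposited counts give no molecule identity, so duplicates were not removed here. The code was tested on simulated data.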

Additional observations from a re-analysis of the deposited data

Results flagged for a closer look

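In each group of 4 or 5 libraries, the CPM of each member was examined for a library far from the others by Dixon's test. Chance flags about 1 in 20 groups, and 7 of 48 were flagged. Hypo WT female 471, the library with uneven coverage and pituitary transcripts, was highest for Hras (130.6 CPM) and lowest for Nf1 (95.2 CPM) in its group. Of the other unevenly covered libraries, PFC Ube3a2x female 468 was highest for Nf1 (232 CPM), PFC Ube3a2x male 258 was highest for Nf1 (182 CPM), and PFC WT female 397 was lowest for Map2k1 (219 CPM). PFC Ube3a2x female 462, 1 of the 6 PFC libraries with over 97% of reads on the expected strand, was highest for Mapk3 (139.8 CPM). Hypo Ube3a2x female 420, the deepest library at 380.8 M reads, was highest for Hras (76.8 CPM). Groups of 4 or 5 give little basis for calling a library an outlier.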

How the results depend on the processing

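Mapk3 in the PFC kept its direction under every alternative run for the interaction and for males. Its interaction of 0.61 went to 0.35 once trends with gene GC content and length were taken out and to 0.31 without the unevenly covered libraries, where its difference in males went from 0.45 to 0.25. Leaving out single libraries gave 0.44 to 0.71 for the interaction, 0.32 to 0.50 in males, −0.23 to −0.11 in females and 0.10 to 0.18 on average, and −0.13 to 0.04 for the Hypo interaction. Over the other settings the Hypo interaction ran from −0.16 with the GC and length trend removed to 0.21 with quality components. The cause of these shifts was not tested. The count of cascade list genes called in the PFC interaction was 8 by DESeq2 and 0 to 11 with single libraries left out, and in PFC males it was 3 by DESeq2, against 0 by edgeR. In the Hypo, the 3 list genes called by sex became 7 by DESeq2, 0 with RNA integrity number alone or quality components, 1 with 1 surrogate variable, with no filter, with the GC and length trend removed or with the strand covariate, 5 with 3 surrogate variables and 8 without the unevenly covered libraries, and 1 to 5 with single libraries left out. Of the 24 relations with library quality, 2 passed with all libraries and 0 without the 2 farthest. Over all genes, DESeq2 called 959 genes in the PFC interaction against 0, 345 in PFC males against 15 and 760 by sex in the Hypo against 288. Across all settings that last count ranged from 18 (RNA integrity number alone) to 920 (without the unevenly covered libraries), and it was also 760 without Hypo WT male 403. With the mouse as a replicate block, the tissue comparison called 4729 genes against 8324, and 22 list genes higher and 9 lower against 29 and 13. As a random block it called 29 higher and 14 lower. The block as a factor changed the calls of Map2k1 and Nf1 and of no other member, and the random block changed none. The SE of the members' PFC genotype differences within a sex ran from 0.05 (Braf in males) to 0.10 (Map2k2 in females) on the log2 scale. Differences of about that size lie near the error of 5 libraries per group.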
